A study of Mus musculus with 9 samples.

Results

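The neuropeptides PACAP and VIP and their 3 receptors were followed in mouse striatum after MPTP, a compound whose metabolite poisons dopamine neurons. The 5 genes Adcyap1, Vip, Adcyap1r1, Vipr1 and Vipr2 were chosen by symbol, as every probe set whose only gene in the platform annotation was one of them. This gave 6 of the 28815 probe sets on the arrays (Vipr1 has 2). No measured value enters that choice, but the family was proposed with earlier results of these arrays known, so their differences between groups are a description and support nothing further. The study hybridised striatal total RNA to 9 single-colour arrays, with 3 in each group. Chronic MPTP mice received 4 mg/kg per day for 20 days and were sampled 8 weeks later. Acute MPTP mice were injected intraperitoneally with 20 mg/kg 4 times at 2 h intervals and were sampled after 1 week. Control mice had 4 saline injections at the same interval and were also sampled after 1 week. The total MPTP dose was 80 mg/kg in both regimens, and regimen and time of sampling cannot be told apart in the chronic group, which has no saline group of its own time. Strain, sex and age are not given in the sources used here, and neither is whether the arrays of a group come from different animals, so the spread behind each p-value may be technical.

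PACAP, the product of Adcyap1, and VIP are related peptides of the secretin family, cut from larger precursors. The receptor PAC1 (Adcyap1r1) prefers PACAP, while VPAC1 (Vipr1) and VPAC2 (Vipr2) bind both peptides. All 3 are class B G protein-coupled receptors that act mainly through Gs, adenylyl cyclase and cAMP, and cAMP in turn switches on genes through the factor CREB. In rodent forebrain Adcyap1 is transcribed mostly in glutamatergic neurons of cortex, thalamus and hypothalamus, and Vip in a class of cortical interneurons. PACAP is known for protecting dopamine neurons in rodent toxin models.

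CREB binds the cAMP response element, whose full form is TGACGTCA. The stretches before the start sites of the 2 peptide genes are shown because both peptides are known as cAMP-responsive genes, and the letters TGACGTC are in capitals. They are from RefSeq (GRCm38.p6), plus strand, and cover 250 bases before an annotated start, at chr17:93198767-93199016 for Adcyap1 and chr10:5638968-5639217 for Vip.
Adcyap1: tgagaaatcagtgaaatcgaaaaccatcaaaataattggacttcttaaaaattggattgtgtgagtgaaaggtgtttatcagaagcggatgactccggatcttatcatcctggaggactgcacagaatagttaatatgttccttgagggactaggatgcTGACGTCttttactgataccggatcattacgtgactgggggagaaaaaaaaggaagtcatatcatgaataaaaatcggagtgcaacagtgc
Vip: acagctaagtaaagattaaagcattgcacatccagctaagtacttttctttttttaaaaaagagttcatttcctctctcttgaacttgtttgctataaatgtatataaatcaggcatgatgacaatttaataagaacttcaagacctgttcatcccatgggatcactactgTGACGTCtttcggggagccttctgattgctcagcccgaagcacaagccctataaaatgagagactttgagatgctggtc
TGACGTC begins 91 bases before the start site in the Adcyap1 stretch and 79 bases before it in the Vip stretch. The table holds a second Adcyap1 start further downstream, and from that start the same letters lie 242 bases away, so the distance depends on the start chosen. Searched on both strands, it occurs in 3.21% of all 32851 promoter windows of 300 bases in that table, and the full TGACGTCA, which contains it, in 1.79%. The longest run that the 2 stretches share is TGACGTCTTT, found in 23 of those windows. The windows of Adcyap1r1 and Vipr2 hold neither TGACGTC nor the shorter TGACG, and that of Vipr1 holds TGACG 13 bases before its start, on the minus strand (20.8% of windows hold TGACG). These are matches of letters and say nothing of binding.

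Adcyap1 was lowest on the 3 chronic arrays. Its log2 intensity was 6.32, 6.36 and 6.25 in the chronic group, 7.08, 7.45 and 7.01 in the acute group and 7.97, 6.94 and 7.58 in the controls. Every chronic array lay below every acute and every control array, with a gap of 0.58 between the highest chronic and the lowest control value, while the acute and control arrays overlapped. The chronic arrays were also close to each other, at 6.31 ± 0.05, against 7.18 ± 0.24 for the acute and 7.50 ± 0.52 for the control arrays (SD, n = 3 each). These chronic values were dim, not far above 5.89, the mean over the 9 arrays that a probe set needed to be tested. The mean of Adcyap1 over all arrays, 6.99, was at percentile 45.5 of probe sets with 1 symbol. Whether dimness narrowed the chronic spread or altered the fold difference was not tested.

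Set against the controls, Adcyap1 was 2.28-fold lower after chronic MPTP, a log2 difference of -1.19 ± 0.23 (SE; 95% interval -1.71 to -0.67). It did not pass the test across all 16335 probe sets tested (limma, adjusted p = 0.876), and neither did any other probe set there, so 0% were called. In the order of unadjusted p it stood at rank 6 of those tested, and by size at rank 7 among the 8702 probe sets that were lower. Of the 6 probe sets of these genes 1 had groups that did not overlap, and of all tested 6.55% did, 3.67% with the chronic arrays lower. Against acute MPTP the chronic arrays were 1.83-fold lower in Adcyap1 (-0.87 ± 0.23, adjusted p = 0.877 in limma), again without overlap, which 8.63% of all tested probe sets showed, 5.01% in that direction. The acute arrays lay 0.32 ± 0.23 below the controls on the log2 scale (-0.32, 95% interval -0.83 to 0.20, adjusted p = 1 in limma). The order of the group means was therefore chronic, acute, control from low to high, with the last 2 not apart beyond their spread. The acute against control difference was -0.08 without control 1 and -0.59 without control 2.

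**Figure D1:**
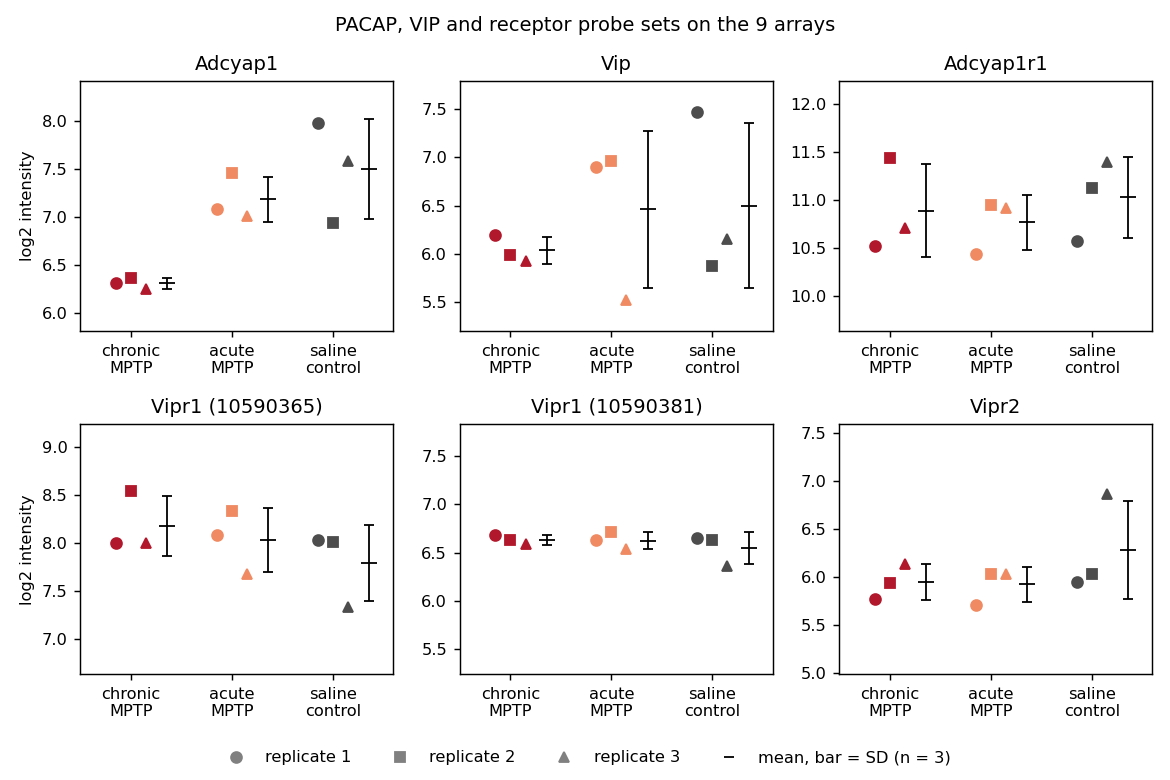
Log2 intensity of each of the 6 probe sets (1 panel each, all panels spanning the same number of log2 units) on the chronic MPTP, acute MPTP and saline control arrays; symbols give the replicate number and bars the mean and SD of 3 arrays. For Adcyap1 the 3 chronic arrays, at 6.25 to 6.36, lie below all others, and in the other panels the groups overlap.

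Markers of neighbouring brain regions differed between arrays within each group. Ppp1r1b (DARPP-32) and Drd2, markers of the striatal projection neurons that the tissue label leads to, were measured on every array, between 11.44 and 12.31 and between 10.88 and 12.01. Over the whole striatal list, 15 of 17 genes were tested, and all 15 were higher in chronic than in control arrays (median 0.52), in acute than in control arrays (0.34) and in chronic than in acute arrays (0.24), with 0 past the threshold. The mean of that list lay between 0.19 and 0.35 in the chronic group, between 0.00 and 0.05 in the acute group and between -0.52 and 0.11 in the controls, so that its group means ran in the reverse order of those of Adcyap1, and its part in the Adcyap1 differences was not tested. Tbr1, a factor of cortical glutamatergic neurons, was high on acute 1 (9.12), acute 2 (9.65) and control 1 (9.89) and lay between 5.69 and 7.27 on the rest. Slc17a6, which loads glutamate into vesicles in thalamus and hypothalamus, was highest on chronic 3 (8.51), acute 3 (9.43) and control 3 (10.59), and Ttr, of choroid plexus, on the same 3 arrays. The list of cortical glutamatergic neurons (13 of 14 genes tested, each centred on its own mean) averaged between -0.80 and -0.37 in the chronic group, -0.62 and 1.07 in the acute group and -0.46 and 1.18 in the controls. The list of thalamus, septum and hypothalamus (18 of 18 tested) averaged between -0.46 and -0.02, -0.52 and 0.58, and -0.35 and 1.24 in the same groups. Chronic against control, 11 of 13 cortical and 17 of 18 thalamic, septal and hypothalamic genes were lower, and 0 of either list passed the test.

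Adcyap1 moved with these lists among the controls. Control 1, highest in the cortical list, and control 3, highest in the thalamic list, were the 2 arrays with the most Adcyap1, at 7.97 and 7.58. Control 2, at 6.94, was high in neither. In the other groups Adcyap1 did not go with the thalamic list. Acute 3 and chronic 3, each highest of its group in that list (0.58 and -0.02), had the least Adcyap1 of their groups (7.01 and 6.25). Both were lowest of their groups in the cortical list (-0.62 and -0.80), and acute 2, highest in it (1.07), had the most acute Adcyap1 (7.45). With the means of both lists as covariates in the model, the chronic against control difference was -0.58 ± 0.16 (95% interval -0.95 to -0.20, adjusted p = 1.00 in limma), 1.49-fold, and the chronic against acute difference was -0.26 ± 0.15 (95% interval -0.61 to 0.10). The acute against control difference was -0.32 ± 0.11 in that fit (95% interval -0.58 to -0.06, adjusted p = 1.00 in limma). The chronic and control arrays nearest to each other in both lists were chronic 2 and control 2, with cortical means of -0.38 and -0.46 and thalamic means of -0.11 and -0.03. Between them Adcyap1 differed by -0.58, with 6.36 on chronic 2 and 6.94 on control 2. Without control 1 the chronic against control difference was -0.95, without control 2 it was -1.47 (adjusted p = 0.0551 in limma) and without control 3 it was -1.15. In bulk tissue fewer cells that transcribe a gene and less RNA of it per cell cannot be told apart.

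**Figure D2:**
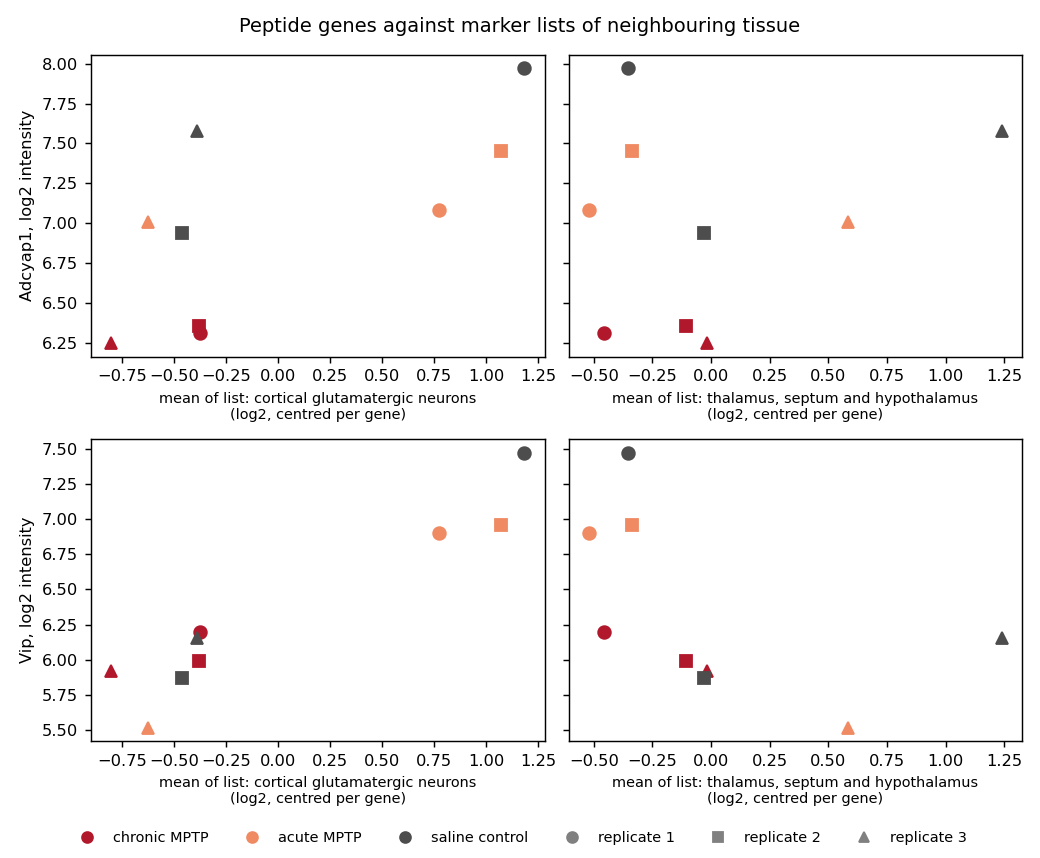
Log2 intensity of Adcyap1 (top) and Vip (bottom) on each of the 9 arrays against the mean of the cortical list (left) and of the thalamic, septal and hypothalamic list (right), in log2 units centred per gene; colour gives the group and symbol the replicate number. Vip is at 6.90 to 7.47 on the 3 arrays to the right of the cortical axis and at most 6.19 elsewhere. Chronic arrays have less Adcyap1 (6.25 to 6.36) than control 2, control 3 and acute 3, whose cortical means are similar. Of these, control 3 and acute 3 are the highest of all arrays in the thalamic list (1.24 and 0.58).

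Vip, the other ligand, showed no difference between groups that exceeded the spread of its arrays. Its log2 intensity was 6.19, 5.99 and 5.92 in the chronic group, 6.90, 6.96 and 5.52 in the acute group and 7.47, 5.87 and 6.16 in the controls. The 3 high arrays, acute 1, acute 2 and control 1, are those high in Tbr1, and the other 6 lay between 5.52 and 6.19, whichever their group. Vip was dim on these 6, and acute 3 (5.52) and control 2 (5.87) lay below the 5.89 that its mean had to reach. The difference was -0.46 ± 0.46 for chronic against control (95% interval -1.50 to 0.57) and -0.04 ± 0.46 for acute against control (-1.08 to 1.00). It was -0.43 ± 0.46 for chronic against acute (-1.46 to 0.61), and adjusted p was between 0.900 and 1 in limma.

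The sign of the chronic differences changed when the 3 arrays high in cortical genes were left out or adjusted for, and that of acute against control did not. With the tissue covariates the chronic against control difference of Vip was 0.16 ± 0.18, the acute against control difference -0.29 ± 0.12 and the chronic against acute difference 0.45 ± 0.17, none past the threshold. Without the 3 arrays they were 0.02, -0.50 and 0.52. Acute 3, with the lowest Vip value of all arrays (5.52), was then the only acute array, so the last 2 values rest on it. Without control 1 the chronic against control difference was 0.02 and the acute against control difference 0.45, and without acute 3 acute against control was 0.43. Vip did not follow the other markers of cortical interneurons that hold it (5 of 6 tested, Htr3a, Prox1, Tac2, Cnr1 and Sncg). Their list mean was -0.37 and -0.19 on acute 1 and acute 2 and -0.50 on control 1, where Vip was highest, against -0.15 to 0.47 on the other 6 arrays. Tac2 and Prox1, which also mark cells of other regions, were highest on control 3.

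Adcyap1r1, which encodes the PACAP-preferring receptor PAC1, overlapped between all groups. It lay at 10.52, 11.43 and 10.71 in the chronic group, 10.44, 10.95 and 10.91 in the acute group and 10.57, 11.12 and 11.39 in the controls. Replicate 1 was the lowest array of each group. The log2 difference was -0.14 ± 0.28 for chronic against control (95% interval -0.76 to 0.48), -0.26 ± 0.28 for acute against control (-0.88 to 0.36) and 0.12 ± 0.28 for chronic against acute (-0.50 to 0.74). With the replicate number as a block the standard error was 0.16, and the chronic against control interval was -0.52 to 0.24. A change of Adcyap1r1 as large as the 2.28-fold of its ligand Adcyap1 in the main fit lies outside these intervals. With the tissue covariates Adcyap1 differed by only -0.58 (1.49-fold) for chronic against control. A change of that size lies inside the main Adcyap1r1 interval and inside its interval with the same covariates (-0.75 to 0.94).

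Vipr1, which encodes VPAC1, was read by 2 probe sets. They had the same sign in every comparison of the main fit, but the dimmer one never differed by more than its standard error. The brighter one, 10590365, lay at 8.00, 8.53 and 8.00 in the chronic group, 8.08, 8.33 and 7.67 in the acute group and 8.03, 8.01 and 7.33 in the controls. Control 3, the array highest in thalamic genes, was the lowest. The chronic arrays were 0.39 ± 0.24 above the controls (95% interval -0.15 to 0.93) and 0.15 ± 0.24 above the acute arrays, and the acute arrays were 0.24 ± 0.24 above the controls. Without control 3 the first difference was 0.16 and that of acute against control 0.01. In the fit with the replicate block the chronic against control difference was 0.39 ± 0.12, with an adjusted p of 0.291 in limma. The other probe set, 10590381, stayed between 6.36 and 6.71 on all 9 arrays. It differed by 0.09 ± 0.10 for chronic against control, 0.08 ± 0.10 for acute against control and 0.01 ± 0.10 for chronic against acute.

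Vipr2, which encodes VPAC2, was the dimmest of the 6 probe sets, with a mean of 6.05 just above the filter at 5.89. It lay at 5.77, 5.94 and 6.14 in the chronic group, 5.72, 6.03 and 6.03 in the acute group and 5.95, 6.03 and 6.86 in the controls. A high value on control 3 set the control mean. The difference was -0.33 ± 0.23 for chronic against control and -0.35 ± 0.23 for acute against control, and without control 3 these were -0.04 and -0.06. Chronic against acute it was 0.03 ± 0.23 (95% interval -0.49 to 0.54).

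Over the 6 probe sets, 0 passed the test in any of the 3 comparisons. All tested probe sets gave 0% for chronic and for acute against control and 0.0122% for chronic against acute. At an unadjusted p under 0.05 there was 1, Adcyap1, in chronic against control (5.51% of all tested), 0 in acute against control (0.851%, where 3.56% of all tested had groups that did not overlap) and 1, again Adcyap1, in chronic against acute (5.12%). These counts depend on the model. With the replicate block they were 2 (Adcyap1 and Vipr1 probe set 10590365, where 13% of all tested did so), 1 (Vipr2, 4.21%) and 1 (Adcyap1, 13.9%) in the same order. With the tissue covariates they were 1 (Adcyap1, 1.03%), 2 (Vip and Adcyap1, 1.02%) and 1 (Vip, 1.95%). The median of the 6 was -0.23, -0.15 and 0.02 in these comparisons, and that of all tested was -0.01, 0.00 and -0.01. The 2 comparisons against control share the control arrays, and chronic MPTP stands in 2 of the 3.

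**Figure D3:**
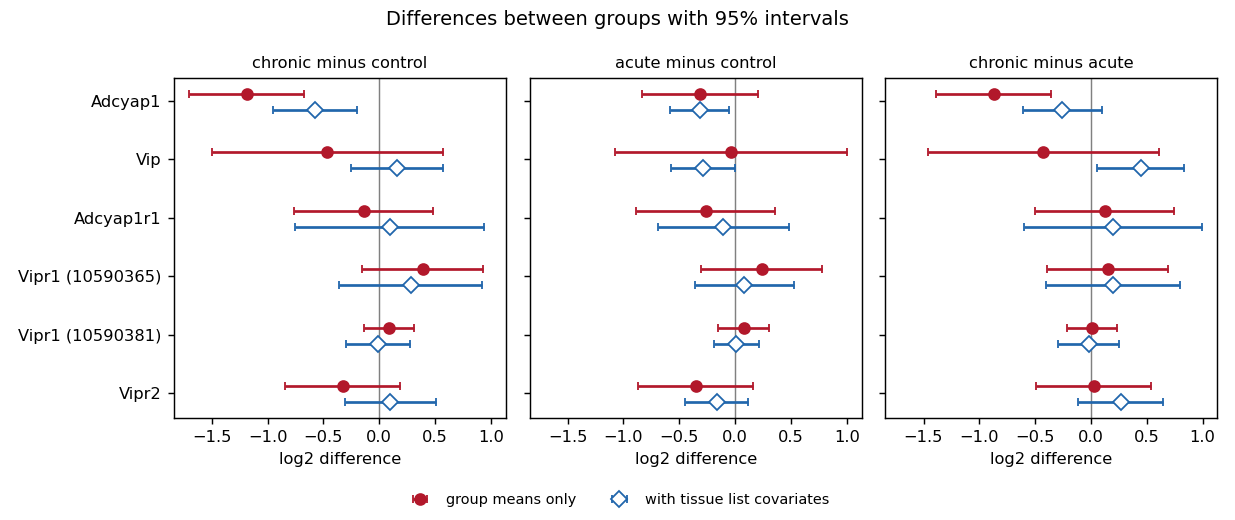
Log2 difference of each of the 6 probe sets for chronic minus control, acute minus control and chronic minus acute; points are estimates of the fit and bars their 95% intervals, without (filled) and with (open) the means of the cortical and the thalamic lists as covariates. The interval of Adcyap1 in chronic minus control lies below 0 in both fits (-1.71 to -0.67 and -0.95 to -0.20), and Vip turns in sign in 2 panels.

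The genes with the most similar profiles over the 9 arrays differed between ligands and receptors. Likeness was the root mean square difference between profiles centred on their own means, in log2 units over 9 arrays, and it includes differences between groups and between tissues alike. Nearest to Adcyap1 were Ncald (0.17), Syt17 (0.17), Sstr1 (0.18), Cbln2 (0.19) and Olfm1 (0.21), against 0.57 for Adcyap1 about its own mean. Sstr1, a somatostatin receptor, lay at 7.02, 7.35 and 7.02 in the chronic group, 7.68, 8.15 and 7.49 in the acute group and 8.36, 7.45 and 8.05 in the controls. As with Adcyap1, control 1 and control 3 were its highest control arrays and all chronic arrays lay below all others. This follows from picking Sstr1 by its likeness to Adcyap1 and is no separate support. Nearest to Vip were Rspo2 (0.17), Bmp3 (0.17), Chrna5 (0.18), Fhl2 (0.19) and Nxph3 (0.20), the neurexin ligand named in the title of the series, against 0.60 for Vip itself. Adcyap1r1 was nearest to Fgfr1 (0.07), Iqsec3 (0.08), Zbtb7c (0.08), Cbarp (0.09) and Pomgnt2 (0.10). The brighter Vipr1 probe set was nearest to Rasgef1c (0.09), Kcnh3 (0.11), Klhl3 (0.12), Mmp17 (0.12) and Dlgap2 (0.13), and Vipr2 to Pcdh20 (0.09), Sfrp2 (0.11), Mta3 (0.12), Glrx (0.12) and Nxph1 (0.13). The dimmer Vipr1 probe set varied by no more than 0.35 over the arrays, and its nearest were Otulin, Sdhaf1, Utp14a, Rpain and Nsmce1 (0.02 to 0.04).

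Of a list of other peptides and receptors of the secretin family, 13 of 16 genes were tested and 0 passed in any comparison. The list also held Gpr83, a receptor outside that family. It is counted below as higher than control after chronic (0.49 ± 0.37) and acute MPTP (0.12 ± 0.37). Chronic against control 9 were lower and 4 higher (median -0.07), and acute against control 6 were lower and 7 higher (0.01). Pth1r, a parathyroid hormone receptor, was -0.22 ± 0.10 and Crhr1, a receptor of corticotropin-releasing hormone, -0.23 ± 0.12 for chronic against control. Ghrhr, the receptor of growth hormone-releasing hormone, was 0.30 ± 0.13 and Glp1r, the GLP-1 receptor, -1.35 ± 0.82 for acute against control.

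Of genes that process the peptides or modify their receptors, 8 of 10 were tested and 0 passed. Chronic against control 6 were lower and 2 higher (median -0.10), and acute against control 4 were lower and 4 higher (0.00). Cpe, the carboxypeptidase that trims peptide precursors, averaged 12.34 on the chronic and 12.52 on the control arrays (-0.19 ± 0.08). Its groups did not overlap there, which 6.55% of all tested probe sets showed, 3.67% with the chronic arrays lower. Ramp3, a receptor activity-modifying protein, did not overlap there either (-0.61 ± 0.28), and was -0.41 ± 0.28 for acute against control. Mme, the peptide-cleaving enzyme neprilysin, was 0.92 ± 0.39 for chronic and 0.72 ± 0.39 for acute against control.

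Among G proteins, cyclases, kinases and CREB cofactors downstream of the receptors, 22 of 26 genes were tested and 0 passed. Chronic against control 13 were lower and 9 higher (median -0.07, and 0.01 with the tissue covariates), and acute against control 11 were lower and 11 higher (0.00). Prkar1b, a regulatory subunit of protein kinase A, was -0.46 ± 0.15 and Adcy2, an adenylyl cyclase, -0.40 ± 0.15 for chronic against control. Adcy8, a calcium-stimulated cyclase, was -0.59 ± 0.31 and Adcy5, the main cyclase of striatum, 0.28 ± 0.18 for acute against control.

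Most cAMP-inducible genes were higher on the chronic than on the acute arrays, where Adcyap1 was lower. Of 18 tested, 15 were higher and 3 lower in that comparison, with a median of 0.75, and 2 passed. Of all 16335 tested probe sets 8806 were lower there, the median was -0.01, and 0.0122% passed, which is these 2 alone. Nr4a1, a nuclear receptor induced by cAMP and activity, rose to 11.04 on chronic arrays, against 8.66 on acute arrays (2.38 ± 0.16, adjusted p = 0.00131 in limma). Arc, a synaptic protein induced by activity, rose to 9.96 on chronic arrays, against 8.78 on acute arrays (1.18 ± 0.12, adjusted p = 0.0288 in limma). With the replicate block Nr4a1 alone of the list passed, and with the tissue covariates 0 did. Chronic against control 14 were higher and 4 lower (median 0.41, Nr4a1 1.08 ± 0.16, Egr2 1.01 ± 0.24), and acute against control 4 were higher and 14 lower (median -0.31, Nr4a1 -1.31 ± 0.16, Arc -0.69 ± 0.12), with 0 past the threshold in either. These genes respond to many inputs other than PACAP and VIP, the list was drawn up with their behaviour on these arrays known, and no test of its difference from Adcyap1 was made. Without chronic 1 the number past the threshold in chronic against acute was 4, and it was 1 without control 2, control 3, any acute array, chronic 2 or chronic 3.

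**Figure D4:**
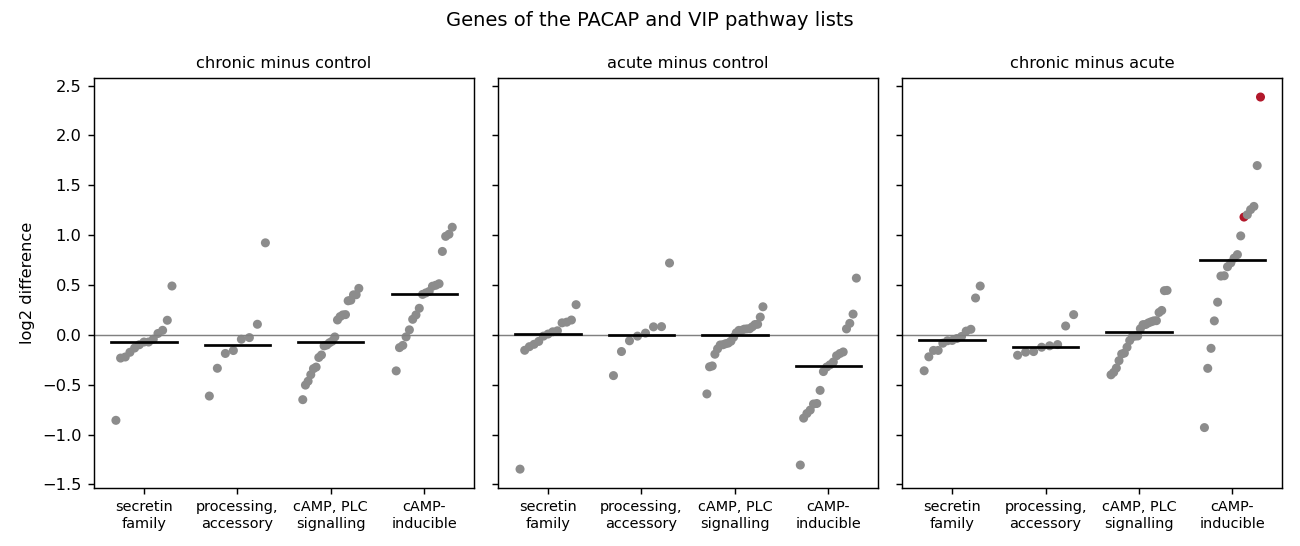
Log2 difference of each tested gene of the 4 pathway lists for chronic minus control, acute minus control and chronic minus acute; each point is a gene, sorted by value within its list, black bars are list medians, and red marks genes past an adjusted p of 0.05. Medians of the first 3 lists lie within 0.12 of 0, and that of the cAMP-inducible genes is 0.41, -0.31 and 0.75.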

How the data were processed

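The authors deposited a log2 intensity for each probe set and array. That scale was read from the values, and how they corrected, normalized and summarised the probes is not given in the material used here. The labels' protocols name a Qiagen RNeasy kit for extraction and the Ambion WT Expression kit for labelling. The values were used without further scaling (array medians 6.85 to 6.90), and precision is limited by the number of arrays. Groups came from the sample titles. Gene names are those of the platform annotation. All 5 genes matched an entry of RefSeq's GRCm38.p6 table, which was used for names and chromosomes; the build behind the probe sets is not given.

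Of 28815 probe sets, 21780 had 1 symbol, 1605 several and 5430 none. The 16335 with 1 symbol and a mean at or above the 25th percentile of such probe sets (5.89), which included all 6 of the members, were fitted with limma 3.58.1 in R 4.3.3, with a mean per group over all 9 arrays, eBayes and Benjamini-Hochberg adjustment (threshold 0.05, two-sided). Within a list, a gene was represented by its probe set of highest mean. Named list genes were the 2 with the smallest unadjusted p in each comparison against control, and any past the threshold; the nearest profiles were the 5 with the smallest root mean square difference. Members and lists were chosen with earlier results of these data known. The code was tested on simulated data for acute against control, over 16335 probe sets. It called 76.4% of 2-fold changes, and 5.18% of its calls were false. The simulated noise was independent between probe sets and arrays, whereas the deposited arrays deviate together across probe sets. The 76.4% is therefore a check of the code and not the power of these data.

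Same-numbered arrays of different groups mostly deviated together. Across probe sets, the 9 such pairs had r between 0.157 and 0.673, and the other 18 pairs between -0.609 and 0.184. These ranges overlap, since control 2 with chronic 2 (0.157) lay below control 3 with chronic 2 (0.184). The numbers were still taken as pairing the arrays. This comes from the values, since the labels do not state it. Each test was repeated with that number as a replicate block. For chronic against control the standard error was then 0.35 for Vip and 0.15 for Vipr2, against 0.46 and 0.23 in the main fit. For Adcyap1 it was 0.23 in both fits.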

Additional observations from a re-analysis of the deposited data

How the results depend on the processing

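Of the 6 probe sets, 0 passed the threshold in any comparison under any alternative: no filter, a filter at the median (which left Adcyap1r1 and the brighter Vipr1 probe set), quantile normalization, median centring, only the groups compared, eBayes with trend, the replicate block, the tissue covariates, and leaving out single arrays or those high in cortical or choroid plexus genes. With the replicate block the adjusted p of Adcyap1 was 0.255 for chronic against control and 0.25 for chronic against acute, and the block changed no call of a member. Adcyap1 stayed below 0 in all 3 comparisons in all 18 alternatives that kept it. The difference ran from -1.47 to -0.58 for chronic against control, -0.59 to -0.08 for acute against control and -0.96 to -0.26 for chronic against acute. These 18 are not separate tests. The chronic against control estimate cannot change with no filter, only the groups compared, eBayes with trend, the replicate block or an acute array left out. For that comparison, leaving out the cortical or the choroid plexus arrays repeats leaving out control 1 (-0.95) or control 3 (-1.15). With 1 array left out a group of 2 remained, and without the 3 cortical arrays 1 acute array, assumed to vary like the others.

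With the tissue covariates the sign turned for chronic against control in Vip (0.16), Adcyap1r1 (0.093), Vipr1 probe set 10590381 (-0.0089) and Vipr2 (0.10), and for chronic against acute in Vip (0.45) and Vipr1 probe set 10590381 (-0.021). Without the 3 arrays high in cortex genes it turned in Vip (0.022 for chronic against control, 0.52 for chronic against acute), Adcyap1r1 (-0.025) and Vipr2 (-0.078), the last 2 for chronic against acute. Without the 2 arrays high in choroid plexus genes it turned for chronic against control in Adcyap1r1 (0.042) and Vipr1 probe set 10590381 (-0.0078), for acute against control in Vip (0.26), and for chronic against acute in Vipr1 probe sets 10590365 (-0.029) and 10590381 (-0.035). Leaving out single arrays, chronic against control ran from -0.78 to 0.022 for Vip, -0.41 to 0.045 for Adcyap1r1 and -0.0078 to 0.14 for Vipr1 probe set 10590381. Acute against control ran from -0.36 to 0.45 for Vip and -0.017 to 0.13 for Vipr1 probe set 10590381. Chronic against acute ran from -0.15 to 0.31 for Adcyap1r1, -0.030 to 0.30 and -0.035 to 0.052 for Vipr1 probe sets 10590365 and 10590381, and -0.078 to 0.12 for Vipr2. The cause was not tested.

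Of the 60 pathway genes, 2 passed for chronic against acute, where 0.0122% of all tested probe sets did. The number was 1 with no filter, with only the groups compared and with the replicate block, 0 with the tissue covariates and in either fit that leaves out the arrays rich in cortical or choroid plexus genes, and 1 to 4 without single arrays. For acute against control it was 0, 1 with only the groups compared (Nr4a1) and 0 to 1 without single arrays, and for chronic against control 0, and 0 to 2 without single arrays.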

Other observations

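Several arrays carried exactly the same value for the dim receptor probe sets. Vipr2 was at 6.03 on acute 2, acute 3 and control 2, and the dimmer Vipr1 probe set, 10590381, at 6.63 on chronic 2, acute 1 and control 2, equal to 6 decimals in each case. Over all probe sets with 1 symbol, 24.6% had 3 or more arrays at an equal value, 39.5% of those with a mean below the median and 9.63% of those at or above it. The values of Adcyap1, Vip, Adcyap1r1 and the brighter Vipr1 probe set were different on each of the 9 arrays.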
